A study of Mus musculus with 18 samples.

Results

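The 26 genes described here encode enzymes of cholesterol synthesis and the proteins that set the activity of SREBP transcription factors, and they were followed in whole ovaries of Elavl2 knockout (KO) and wild type (WT) mice. They were chosen by name, as the genes of a list whose symbol is carried by a non-control probe of the array. The list was chosen with earlier results of these data known. All 26 had a probe and all 26 passed the filter on dim probes, out of 19298 genes that passed it, with 51 of their 52 probes kept. Cells build cholesterol from acetyl-CoA through mevalonate and the isoprenoid farnesyl diphosphate, which squalene synthase commits to sterols, and a chain of enzymes then turns squalene into cholesterol. When membranes are poor in sterol, SCAP escorts SREBP from the endoplasmic reticulum to the Golgi, where it is cleaved and freed to switch on these enzymes, while INSIG proteins hold the complex back when sterol is plentiful. In the mouse ovary, cumulus cells are known to supply growing oocytes with products of this pathway, and the follicle's sterols feed steroid hormone synthesis.

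The samples were XX gonads of KO and WT mice at E15.5 and E17.5, counted in days of embryonic life, and at birth (P0), with 3 arrays for each of the 6 groups and 18 in all. The product of Elavl2 binds RNA and belongs to the ELAV proteins. The labels give genotype and stage but no strain, allele or deleted part, and every group is labelled female. The labels call each sample mixed and do not say that samples came from separate animals, so each p-value reflects only how much these samples vary, which may be technical. Each array was a 1-colour Agilent 4x44K mouse array. A value below is the log2 signal of the gene's brightest probe minus the 75th percentile of its array, so that 1 unit is a doubling, and values of different genes cannot be set against each other.

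Between 62.5% and 75.2% of probes were well above background on each array, replicates correlated with r of 0.965 to 0.9948 across genes, and no spot was saturated. The arrays were scanned in 2 runs and sat on 7 slides. Run A held the E15.5 arrays and replicate 3 of both E17.5 groups, and run B the rest. The run was a term of the fit, so a fitted change between E15.5 and E17.5 rests on replicate 3 of the E17.5 groups, the link between runs. At E15.5 and P0 no slide held both genotypes of the stage, so slide and genotype cannot be told apart there. At E17.5 only replicate 3 of both genotypes shared a slide, slide 3. Replicates 1 and 2 sat on slide 4 for WT and slide 5 for KO, so the same holds for those arrays. Elavl2 averaged 3.16 ± 0.20 in P0 KO ovaries and 4.52 ± 0.06 in P0 WT ovaries (SD, n = 3 each). At E17.5 it averaged 2.64 ± 0.41 in KO ovaries and 3.51 ± 0.13 in WT ovaries. At E15.5 it averaged 2.00 ± 0.12 in KO ovaries and 2.11 ± 0.16 in WT ovaries, without a call (limma, adjusted p = 0.751). Because the position of its probe relative to the deletion is not given in the sources used here, this does not check the genotype labels. At P0 9 of 12 measured oocyte markers were lower in KO ovaries and none higher. The log2 of their summed signal lay between 5.49 and 5.96 on the P0 KO arrays, against 7.10 to 7.24 on the P0 WT arrays, and Bmp15 and Oosp1 were not well above background on any P0 KO array. The tissue was whole, so fewer cells of a type and less RNA per cell cannot be told apart.

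The probes behind 3 of the genes that differed between genotypes at P0 are shown because the results turn on them. Each is a 60-base oligonucleotide on the array, and each matches a span of the mouse genome (mm9) longer than itself: chr14:63765769-63770009 on the minus strand for Fdft1, chr3:88898812-88898952 on the minus strand for Fdps, and chr5:114905993-114908940 on the plus strand for Mvk.
Fdft1 probe: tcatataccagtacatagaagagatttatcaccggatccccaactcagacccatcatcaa
Fdps probe: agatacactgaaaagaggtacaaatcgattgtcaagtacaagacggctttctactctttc
Mvk probe: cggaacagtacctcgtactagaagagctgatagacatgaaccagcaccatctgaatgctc

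Promoter sequences are shown for 3 genes of the early pathway because 2 of them, Mvk and Mvd, were lower in P0 KO ovaries and the other, Hmgcs1, was not called. They are the 250 bases before the start site in RefSeq, build GRCm38.p6: chr5:114444019-114444268 on the plus strand for Mvk, chr8:122443423-122443672 on the minus strand for Mvd and chr13:119690101-119690350 on the plus strand for Hmgcs1. Capitals mark CCAAT on either strand (ATTGG on the strand shown), the motif that NF-Y, a partner of SREBP, is known to bind, and TCACNCCAC, the core of the sterol regulatory element.
Mvk: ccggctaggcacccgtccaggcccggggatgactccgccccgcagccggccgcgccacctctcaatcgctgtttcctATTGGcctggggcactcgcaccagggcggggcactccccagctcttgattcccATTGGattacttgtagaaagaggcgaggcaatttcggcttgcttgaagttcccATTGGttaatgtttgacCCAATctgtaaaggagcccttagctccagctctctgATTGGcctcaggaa
Mvd: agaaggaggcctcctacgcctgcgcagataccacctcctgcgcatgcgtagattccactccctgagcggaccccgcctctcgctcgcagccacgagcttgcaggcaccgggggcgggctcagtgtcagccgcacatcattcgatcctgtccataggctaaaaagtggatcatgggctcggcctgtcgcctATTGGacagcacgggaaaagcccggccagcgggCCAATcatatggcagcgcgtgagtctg
Hmgcs1: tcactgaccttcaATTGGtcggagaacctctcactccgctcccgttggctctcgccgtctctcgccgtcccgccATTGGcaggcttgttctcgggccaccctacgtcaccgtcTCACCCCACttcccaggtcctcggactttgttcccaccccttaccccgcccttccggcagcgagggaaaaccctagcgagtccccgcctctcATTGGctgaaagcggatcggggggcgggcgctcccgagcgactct
RefSeq windows of 250 bases before to 50 after a start site were at hand for 22 of the 26 genes, not for Fdps, Fdft1, Sqle or Stard4, and were searched on both strands. The 22 genes had 30 windows. CCAAT occurred in 21 of the 30 (20 genes), and in 37.4% of all 32851 windows. The Sp1 box GGGCGG occurred in 24 of the 30 (also 20 genes), and in 35.7% of all windows. TCACNCCAC occurred in 1 of the 30, that of Hmgcs1, and in 1.24% of all windows. These matches describe letters in a window and do not show that a factor binds there. A site that departs from the string searched was not counted, so a window without a match may still hold a sterol regulatory element.

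At P0 14 of the 26 genes differed between genotypes, 11 lower and 3 higher in KO ovaries (limma, Benjamini-Hochberg adjusted p under 0.05 across all genes). By the same test 34.4% of all genes tested were called, 16.2% lower and 18.2% higher, so a call was common at this stage. The median log2 change of the 26 genes was -0.16, and that of all genes 0.00. Of the 10 enzymes up to squalene epoxide, the Ggps1 branch included, 7 were lower and none higher, of the 10 after it 3 were lower and 1 higher, and of the 6 regulators and carriers 1 was lower and 2 higher. Scaling each array by its median in place of its 75th percentile moved the median of all genes to 0.14 and left 10 called, 7 lower and 3 higher. With the P0 arrays alone, 8 of the 14 were called (Acat2, Tm7sf2, Nsdhl, Hsd17b7, Cyp51 and Srebf1 were not), and the 8 were 7 lower and 1 higher.

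**Figure D1:**
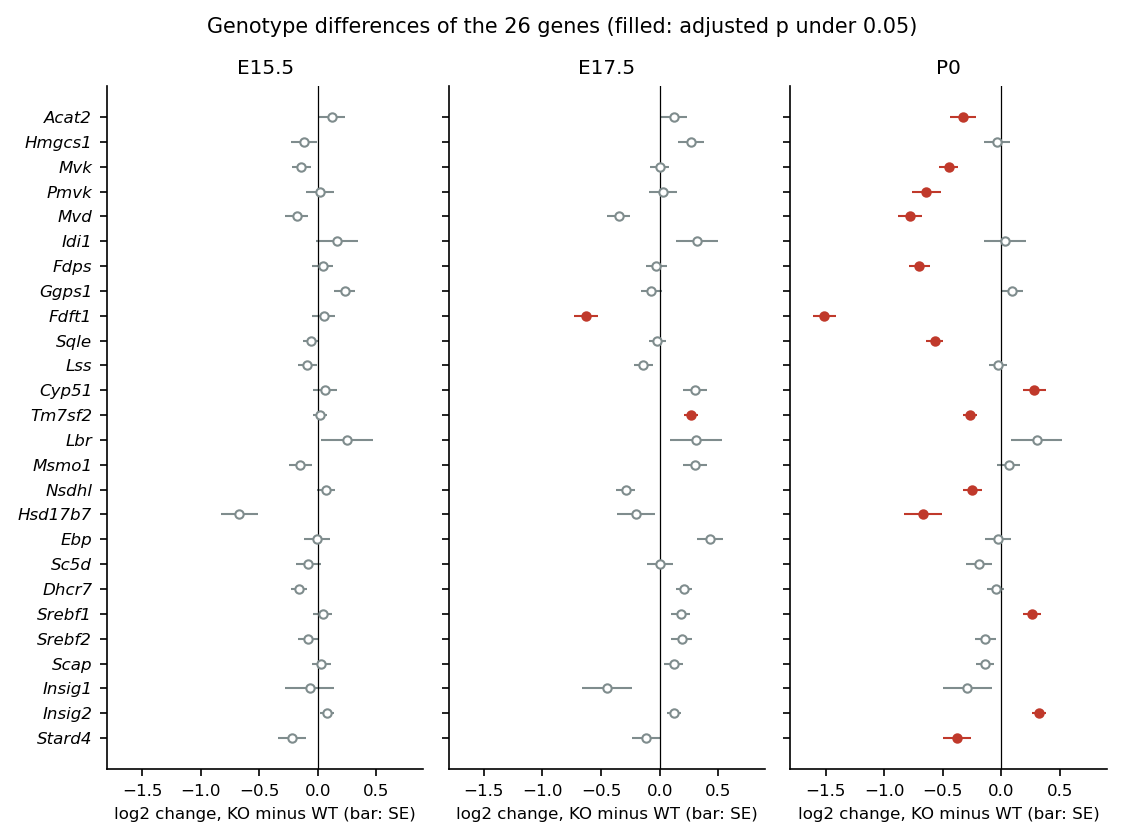
Log2 change, KO minus WT, of the 26 genes in pathway order from top to bottom, one panel per stage; points are fitted changes, bars 1 standard error, and filled points have an adjusted p under 0.05. There are 14 filled points at P0 and 2 at E17.5, with none at E15.5 and with Fdft1 farthest to the left at P0 at -1.51.

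Fdft1, squalene synthase, which joins a pair of farnesyl diphosphates into squalene, had the largest change of the 26. Its signal on the P0 arrays was 1.37, 1.10 and 1.25 in KO ovaries, against 2.72, 2.73 and 2.79 in WT ovaries. The groups did not overlap, and the log2 change was -1.51 (SE 0.10, adjusted p = 9.45e-07), a ratio of 0.352. It was the only one of the 14 to differ by 2-fold or more. Across all 18 arrays the 9 KO arrays stayed between 0.89 and 1.48, whereas WT arrays lay higher at each later stage. All values of Fdft1 come from a single probe. Its other probe was dropped by the filter, being well above background on 2 of the 18 arrays and on no P0 array.

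Upstream, the 3 enzymes that turn mevalonate into isopentenyl diphosphate were lower in KO ovaries at P0. Mevalonate kinase (Mvk) measured -1.62, -1.33 and -1.51 in KO ovaries, against -1.01, -0.98 and -1.12 in WT ovaries. Phosphomevalonate kinase (Pmvk) measured 1.18, 1.37 and 1.42 in KO ovaries, against 1.92, 2.01 and 1.95 in WT ovaries. For both, every KO array was below every WT array, with log2 changes of -0.45 (SE 0.08, adjusted p = 0.00142) for Mvk and -0.64 (SE 0.12, adjusted p = 0.00133) for Pmvk. Mevalonate diphosphate decarboxylase (Mvd) measured 0.26, 0.28 and 0.49 in KO ovaries, against 1.19, 1.25 and 0.96 in WT ovaries. Its groups did not overlap either, and its log2 change was -0.78 (SE 0.10, adjusted p = 0.000132). Further probes of a gene were tested in the same model fitted over all 29201 kept probes. The second probe of Pmvk also fell (-0.56, adjusted p = 0.00161), while that of Mvk gave -0.27 without passing (adjusted p = 0.143).

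Farnesyl diphosphate synthase (Fdps), the step before squalene synthase, measured 1.83, 1.60 and 1.76 in P0 KO ovaries, against 2.37, 2.43 and 2.48 in P0 WT ovaries. Squalene epoxidase (Sqle), the step after it, measured 0.82, 0.94 and 0.88 in KO ovaries, against 1.46, 1.40 and 1.49 in WT ovaries. Neither gene's groups overlapped. The log2 changes were -0.70 (SE 0.09, adjusted p = 0.000115) for Fdps and -0.57 (SE 0.07, adjusted p = 0.000118) for Sqle. A dimmer second probe of Fdps gave -0.35 (adjusted p = 0.11). Acat2, a cytosolic acetyl-CoA acetyltransferase, gave -0.33 on the log2 scale (SE 0.11, adjusted p = 0.0342), with -3.06, -2.77 and -2.78 in KO ovaries and -2.72, -2.38 and -2.53 in WT ovaries. Its single probe is listed for a near-identical gene as well, so the signal cannot be assigned to Acat2 alone. The call was lost in 11 of 34 alternatives, among them without P0 WT replicate 2 or 3 or P0 KO replicate 1.

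**Figure D2:**
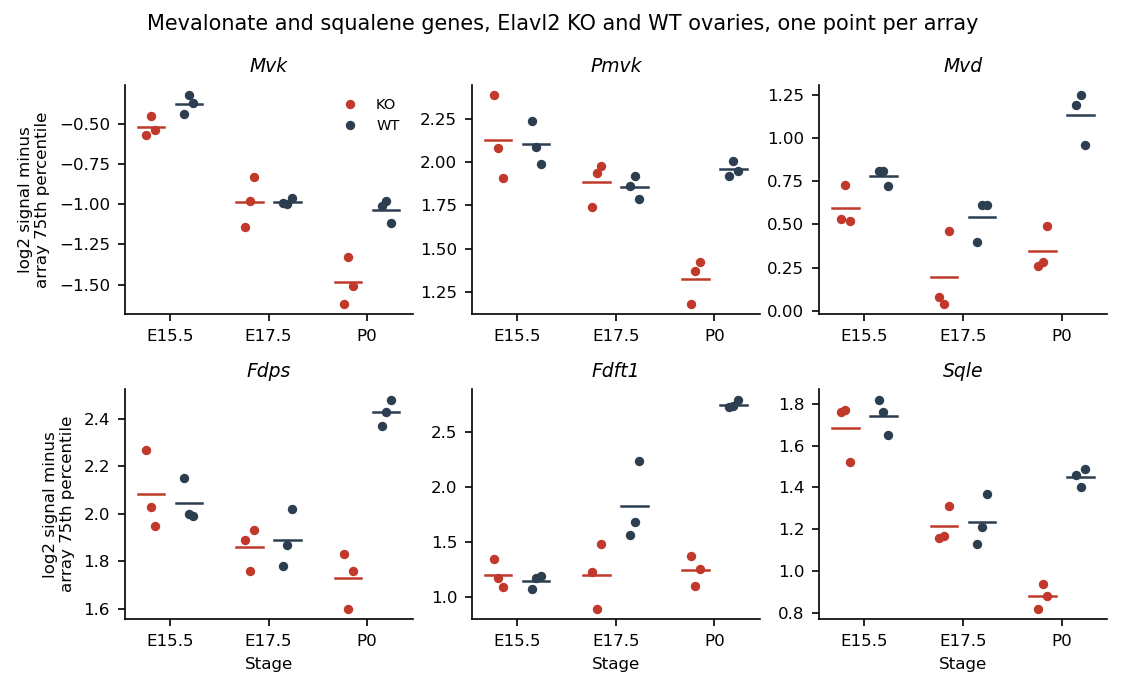
Log2 signal minus the array's 75th percentile (vertical axes, each with its own range) of 6 genes by stage (horizontal axes); each point is 1 array, KO left of WT, and lines are means of 3 arrays. At P0 all 3 KO points lie below all 3 WT points in each panel, for Fdft1 at 1.10 to 1.37 in KO and 2.72 to 2.79 in WT.

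The enzymes that work on the sterol rings after squalene epoxide gave mixed results at P0. Tm7sf2, a sterol C14-reductase, measured 0.17, 0.06 and 0.11 in KO ovaries, against 0.39, 0.31 and 0.44 in WT ovaries (log2 change -0.27, SE 0.06, adjusted p = 0.00579). Nsdhl, a C4-demethylating dehydrogenase encoded on the X chromosome, measured -0.64, -0.73 and -0.77 in KO ovaries, against -0.41, -0.49 and -0.47 in WT ovaries (log2 change -0.25, SE 0.08, adjusted p = 0.021). Both were lower on every KO array, and 2 other probes of Nsdhl gave -0.35 (adjusted p = 0.0119) and -0.47 (adjusted p = 0.00104). The third other probe of Nsdhl was not well above background on any P0 array and gave no call. Hsd17b7, the 3-ketosteroid reductase of the same demethylation complex, measured -0.49, 0.15 and -0.26 in KO ovaries, against 0.71, 0.24 and 0.46 in WT ovaries. Its groups were close but did not overlap, and its log2 change was -0.67 (SE 0.16, adjusted p = 0.00626), whereas its second probe gave -0.14 (adjusted p = 0.332). Cyp51, the lanosterol 14-demethylase, went the other way, with -1.94, -1.86 and -1.89 in KO ovaries and -2.26, -2.34 and -1.95 in WT ovaries. Its log2 change was 0.28 (SE 0.10, adjusted p = 0.0384), and its other probes gave 0.49 (adjusted p = 0.00255) and 0.08 (adjusted p = 0.709). Its call was lost in 13 of 36 alternatives, among them leaving out any P0 KO array or P0 WT replicate 1 or 2, and that of Nsdhl in 8 of 37, among them without P0 WT replicate 1 or P0 KO replicate 2 or 3.

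The other 9 enzymes did not pass at P0. These were Hmgcs1, which makes HMG-CoA, Idi1, which interconverts the isopentenyl diphosphates, Ggps1, which makes geranylgeranyl diphosphate, and Lss, Lbr, Msmo1, Ebp, Sc5d and Dhcr7, which close and trim the sterol rings. Their log2 changes ran from -0.19 for Sc5d to 0.30 for Lbr. A second probe gave another answer for some of them. Dim probes of Hmgcs1 (-0.63, adjusted p = 0.0145), Idi1 (-0.50, adjusted p = 0.0165) and Sc5d (-0.40, adjusted p = 0.0257) passed as lower, and one of Ggps1 as higher (0.37, adjusted p = 0.0125).

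Lss, lanosterol synthase, which closes squalene epoxide into the first sterol, was measured by 3 probes on chromosome 10 (mm9) that did not follow each other over the stages. Values for all 3 come from the fit over 29201 probes. The brightest, probe A_52_P118161 at chr10:76019513-76019572, is listed for an Ensembl transcript. It measured -0.87, -0.81 and -0.76 in P0 KO ovaries and -0.72, -0.81 and -0.82 in P0 WT ovaries. At E17.5 it measured -1.43, -1.42 and -1.50 in KO ovaries and -1.39, -1.30 and -1.24 in WT ovaries, so it was higher at P0 in KO (0.64, SE 0.09, adjusted p = 0.000117) and in WT (0.53, SE 0.09, adjusted p = 0.000438). At E15.5 it measured -1.28, -1.44 and -1.51 in KO ovaries and -1.26, -1.25 and -1.47 in WT ovaries, with no call between E15.5 and E17.5.

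The other probes of Lss, both listed for its RefSeq transcript, were lower at P0 than at E17.5. Probe A_51_P296487, at chr10:76015992-76016051, measured -1.10, -1.12 and -1.12 at E15.5, then -1.63, -1.71 and -1.36 at E17.5, and then -1.89, -2.21 and -1.98 at P0 in KO ovaries. In WT ovaries it measured -1.18, -1.13 and -1.08 at E15.5, then -1.61, -1.28 and -1.18 at E17.5, and then -1.92, -2.11 and -2.23 at P0. Its log2 change, P0 minus E17.5, was -0.36 in KO (adjusted p = 0.0198) and -0.64 in WT (adjusted p = 0.000648), opposite in sign to the brightest probe. Probe A_52_P168028, at chr10:76013409-76013468, measured -1.99, -2.04 and -2.28 at E15.5, then -2.77, -2.72 and -2.20 at E17.5, and then -2.98, -3.11 and -3.02 at P0 in KO ovaries. In WT ovaries it measured -2.06, -1.94 and -1.91 at E15.5, then -2.49, -2.34 and -1.98 at E17.5, and then -2.57, -2.78 and -2.82 at P0. It was the only one of the 3 to differ between genotypes at P0, at -0.31 (SE 0.09, adjusted p = 0.0202), against -0.03 (adjusted p = 0.811) for the brightest and 0.06 (adjusted p = 0.683) for A_51_P296487. A single direction for Lss with stage therefore depends on the probe read.

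**Figure D3:**
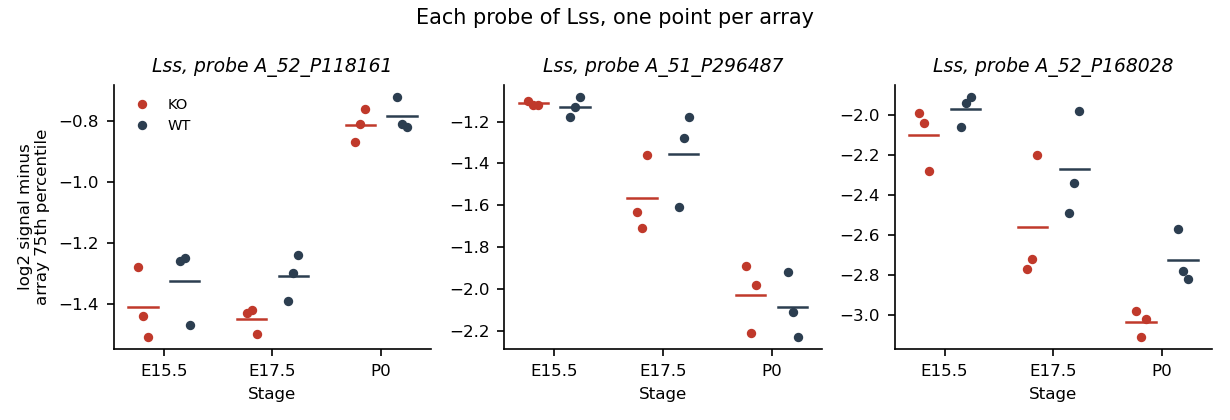
Log2 signal minus the array's 75th percentile (vertical axes, each with its own range) for each probe of Lss by stage (horizontal axes); each point is 1 array, KO left of WT, and lines are means of 3 arrays. The probe on the left is highest at P0, at -0.87 to -0.76 in KO and -0.82 to -0.72 in WT, and the others are lowest at P0.

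Among the regulators, Srebf1, which encodes the SREBP known mainly for fatty acid genes, was higher in KO ovaries at P0. It measured 3.24, 3.06 and 3.09 in KO ovaries, against 2.90, 2.82 and 2.89 in WT ovaries, without overlap (log2 change 0.26, SE 0.08, adjusted p = 0.0233). Without P0 WT replicate 2 or P0 KO replicate 1 it did not pass. Srebf2, which encodes the SREBP known mainly for cholesterol genes, and Scap, its escort, were not called, with log2 changes of -0.14 each (adjusted p = 0.23 and 0.176). Of the other probes of Srebf2, 2 gave -0.07 and -0.06 (adjusted p = 0.473 and 0.766). The last, a dim one, was not well above background on any P0 KO array. Its measured mean at P0 was -6.64 in KO ovaries and -5.18 in WT ovaries (limma, adjusted p = 0.00944). With KO signals raised to the dimmest signal of any probe well above background on the array, it was 1.23-fold lower in KO. That floor is not this probe's own detection limit, so the value is not a bound, and it was not tested. On slide 3 this probe measured -4.09, -4.19 and -3.69 (E15.5 KO, E17.5 WT and E17.5 KO, replicate 3 of each). On the other arrays of all stages it lay between -6.96 and -4.95. Srebf2 averaged 2.56 ± 0.08 in KO ovaries and 2.70 ± 0.15 in WT ovaries, and Scap 4.94 ± 0.10 in KO ovaries and 5.08 ± 0.05 in WT ovaries (SD, n = 3 each). Insig1, itself a well-known SREBP target, gave -0.29 (SE 0.21, adjusted p = 0.301), with -1.27, -1.25 and -0.94 in KO ovaries and -0.94, -0.93 and -0.72 in WT ovaries.

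Insig2, the other retention protein, measured 1.15, 1.25 and 1.31 in P0 KO ovaries, against 0.82, 0.91 and 1.00 in P0 WT ovaries, a log2 change of 0.32 (SE 0.06, adjusted p = 0.00225). A dimmer probe listed for another transcript pointed the other way, at -0.31 (adjusted p = 0.0534) at P0, -0.45 (adjusted p = 0.0413) at E17.5 and -0.50 (adjusted p = 0.0435) at E15.5. The direction for Insig2 thus depends on the probe. Stard4, a sterol carrier of the cytosol that SREBP is known to induce, measured 0.11, 0.06 and 0.18 in KO ovaries, against 0.69, 0.38 and 0.43 in WT ovaries. Its log2 change was -0.38 (SE 0.12, adjusted p = 0.0306), and its other probes gave -0.53 (adjusted p = 0.0192) and -0.41 (adjusted p = 0.0381). Its call was lost without P0 WT replicate 1 or without P0 KO replicate 1 or 2.

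**Figure D4:**
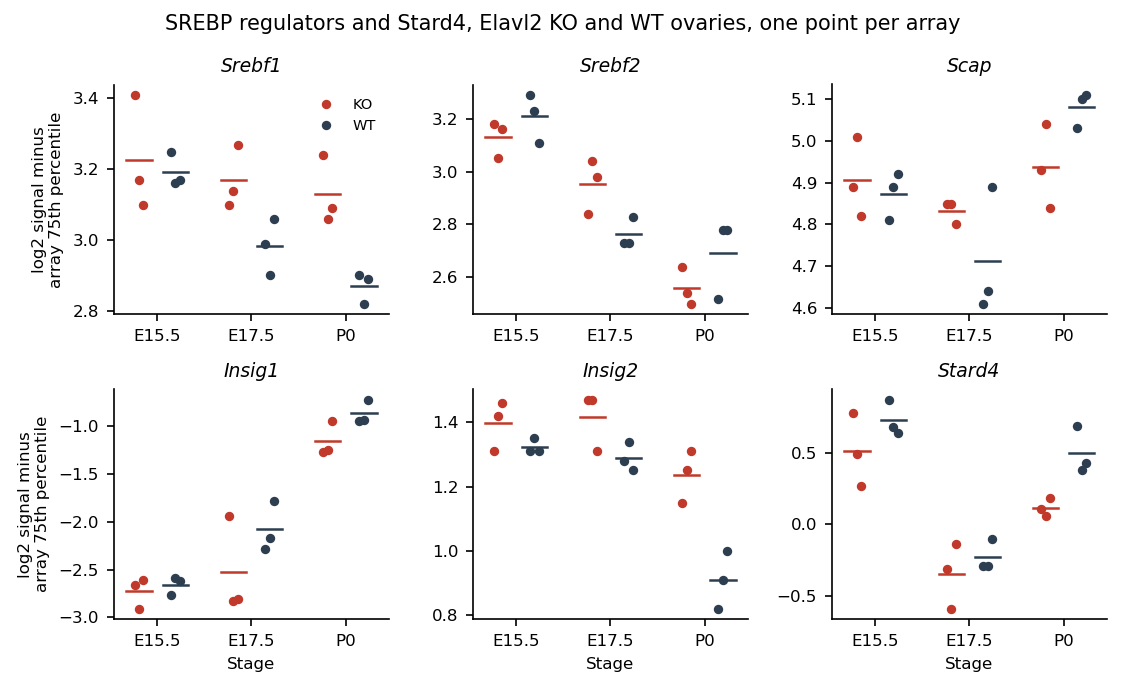
Log2 signal minus the array's 75th percentile (vertical axes, each with its own range) of the SREBP genes, their regulators and Stard4 by stage (horizontal axes); each point is 1 array, KO left of WT, and lines are means of 3 arrays. Insig1 is highest at P0 in both genotypes, and at P0 Srebf1 and Insig2 lie higher and Stard4 lower in KO than in WT.

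At E17.5 2 of the 26 genes differed between genotypes, where 4.12% of all genes were called, 1.34% higher and 2.79% lower. Fdft1 measured 1.22, 0.89 and 1.48 in KO ovaries, against 1.56, 1.68 and 2.23 in WT ovaries, a log2 change of -0.63 (SE 0.10, adjusted p = 0.00748). Tm7sf2 measured 0.14, 0.30 and 0.21 in KO ovaries, against 0.00, -0.03 and -0.15 in WT ovaries, a log2 change of 0.27 (SE 0.06, adjusted p = 0.0297). Neither gene's groups overlapped, and the highest Fdft1 value of each group was replicate 3, of run A. Within run A the difference was -0.75 for Fdft1 and 0.36 for Tm7sf2 (1 array per genotype). Within run B it was -0.56 and 0.23 (2 arrays per genotype, with each genotype on its own slide). With the replicate number as a block, 0 of the 26 were called (Fdft1 adjusted p = 0.0555, Tm7sf2 adjusted p = 0.0988), as was the case with the E17.5 arrays alone and without replicate 3 of either genotype, while without KO replicate 1 the count was 5. Over all genes, calls at E17.5 ran from 141 to 1027 across the fits that left out 1 array, against 796 with every array. At an unadjusted p under 0.05 in limma 11 of the 26 passed, and 22% of all genes, and with scaling by the array median Fdft1 alone was called. The median log2 change of the 26 genes was 0.07, and that of all genes 0.05. These results use each gene's brightest probe. For Insig1 that probe gave -0.45 without a call (limma, adjusted p = 0.235), with overlap. A dimmer Insig1 probe measured -4.46, -5.18 and -4.22 in KO ovaries, against -3.89, -3.97 and -3.50 in WT ovaries, without overlap. No test of this dimmer probe is reported here.

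At E15.5 none of the 26 genes passed the test in limma, where 1.64% of all genes were called, 0.99% higher and 0.653% lower. At an unadjusted p under 0.05 2 passed, Ggps1 and Hsd17b7, where 14.7% of all genes did, and with array weights in limma 2 were called. The smallest adjusted p was that of Hsd17b7, which measured 0.07, -0.02 and -0.27 in KO ovaries, against 0.54, 0.65 and 0.61 in WT ovaries. Its groups did not overlap, and its log2 change was -0.67 (SE 0.16, adjusted p = 0.0573). The median log2 change was 0.01 for the 26 genes and for all genes. Fdft1 at this stage measured 1.34, 1.17 and 1.09 in KO ovaries, against 1.07, 1.17 and 1.19 in WT ovaries, with overlap.

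The genotype difference at P0 was then set against that at E17.5 in 1 test across all genes. It was more negative at P0 for 6 of the 26 genes and more positive for none, where 10.3% of all genes were called, 6.14% more negative and 4.21% more positive. The change of the difference was -0.88 (SE 0.14, adjusted p = 0.00308) for Fdft1, -0.67 (SE 0.17, adjusted p = 0.0236) for Pmvk and -0.66 (SE 0.13, adjusted p = 0.00728) for Fdps. It was -0.55 (SE 0.10, adjusted p = 0.00696) for Sqle and -0.45 (SE 0.12, adjusted p = 0.03) for Mvk. For Tm7sf2, which was higher in KO ovaries at E17.5 and lower at P0, it was -0.54 (SE 0.09, adjusted p = 0.00354). Scaling by the array median moved the median of all genes in this comparison to 0.14 and left 1 of the 6, Fdft1, called. Mvk also lost its call without most single arrays of E17.5 or P0 and with the replicate block, and Pmvk without E17.5 WT replicate 3, E17.5 KO replicate 2 or 3, P0 WT replicate 2 or P0 KO replicate 1. At E17.5 the arrays of Mvk, Pmvk, Fdps and Sqle overlapped between genotypes, with log2 changes of 0.00, 0.03, -0.03 and -0.02.

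Over time in WT ovaries, 16 of the 26 genes differed between P0 and E17.5, 14 higher and 2 lower at P0, where 43.3% of all genes were called, 22.3% higher and 21% lower. Scaled by the array median, 8 were higher and 3 lower. The largest rises were those of Insig1 (1.22, SE 0.22, adjusted p = 0.000939), Fdft1 (1.10, SE 0.11, adjusted p = 1.2e-05) and Stard4 (0.80, SE 0.13, adjusted p = 0.000447). Hsd17b7, Mvd, Fdps, Sc5d, Lss by its brightest probe, Tm7sf2, Scap, Ggps1, Acat2, Nsdhl and Sqle rose by 0.27 to 0.68. Insig2 fell by 0.41 (SE 0.07, adjusted p = 0.000481) and Cyp51 fell by 0.35 (SE 0.10, adjusted p = 0.0167). In KO ovaries 16 genes also differed between P0 and E17.5, 6 higher and 10 lower, where 37.2% of all genes were called, 18.2% higher and 19% lower. Insig1 rose there too (1.38, SE 0.22, adjusted p = 0.000488), as did Lss, Ggps1, Stard4, Sc5d and Nsdhl by their brightest probes, while Pmvk, Mvk, Dhcr7, Hmgcs1, Ebp, Srebf2, Cyp51, Msmo1, Sqle and Insig2 fell. Other probes went the opposite way and passed for Lss (above), for Ggps1 (-0.68, SE 0.13, adjusted p = 0.00166), for Sc5d (-0.35, SE 0.13, adjusted p = 0.0487) and for Srebf2 (0.79, SE 0.14, adjusted p = 0.000891), so the direction of these 4 in KO depends on the probe. Fdft1 gave 0.22 in KO ovaries without passing (SE 0.11, adjusted p = 0.126). Without replicate 2 of the E17.5 KO group the count in KO was 6. Over all genes, calls in KO ran from 4585 to 7321 across the fits that left out 1 array, against 7179 with every array.

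Between E15.5 and E17.5 most called members were lower at the later stage. In WT ovaries 15 of the 26 differed, 13 lower and 2 higher at E17.5, where 26.3% of all genes were called, 15.2% higher and 11.1% lower. Tm7sf2 fell by 0.92 (SE 0.08, adjusted p = 1.01e-05), Hsd17b7 fell by 0.87 (SE 0.19, adjusted p = 0.00659) and Stard4 fell by 0.79 (SE 0.15, adjusted p = 0.00291). Fdft1 (1.03, SE 0.12, adjusted p = 0.000119) and Nsdhl (0.27, SE 0.09, adjusted p = 0.0482) rose. In KO ovaries 6 differed, all lower, where 21.7% of all genes were called, 11.7% higher and 9.98% lower. These were Ggps1, Stard4, Tm7sf2, Acat2, Mvk and Sqle. These counts rest on replicate 3 of each E17.5 group, the only E17.5 arrays of the run that held the E15.5 arrays. Without it 3 genes were called in WT and 3 in KO. Counts over all genes moved as well. Across the fits that left out 1 array they ran from 1049 to 5536 in WT, against 5079 with every array. In KO they ran from 2528 to 5313, against 4189.

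Markers of other cells are given beside the 14 genes, and at P0 16.2% of all genes were lower and 18.2% higher in KO ovaries. The mean log2 signal over 12 oocyte markers was -0.84, -0.70 and -0.31 on the P0 KO arrays, against 2.43, 2.49 and 2.31 on the P0 WT arrays. At E17.5 it was -1.32, -2.26 and -2.10 in KO ovaries and -1.10, -1.56 and -0.33 in WT ovaries. At P0 3 of 10 cell division genes and 3 of 6 mesonephros and kidney genes were lower in KO ovaries, and none of either higher. Of 8 endothelial markers 6 were higher, as were 4 of 9 pregranulosa markers, 3 of 9 stromal markers and 2 of 9 macrophage markers, and none of these were lower. Of 7 pan germ cell markers 2 were higher and none lower. The part of these cells in the changes of the 26 genes was not tested. Lbr, an inner nuclear membrane protein with sterol reductase activity, stood out on replicate 1 of the E15.5 KO group and replicate 3 of the E17.5 KO group, at 1.77 on both, against 0.63 to 1.21 on the other 16 arrays. On those 2 arrays the mean over 8 red cell markers was 1.58 and 1.21, the highest of the 18, and its part in Lbr was not tested.

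**Figure D5:**
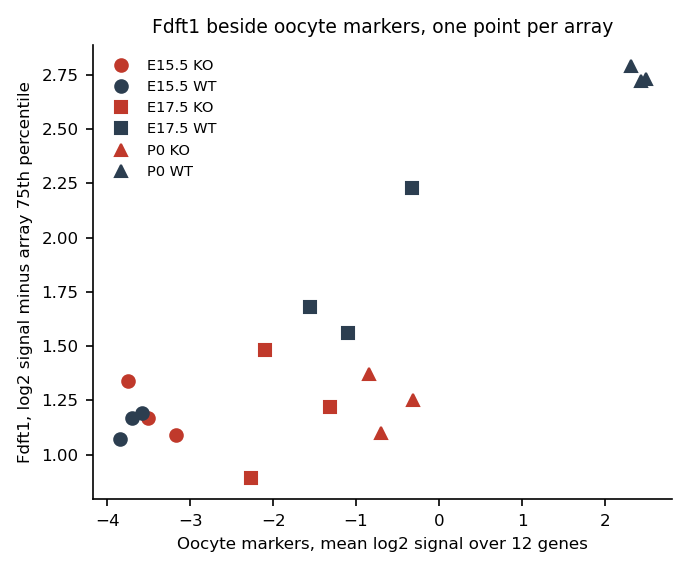
Fdft1 (vertical axis, log2 signal minus the array's 75th percentile) beside the mean log2 signal of 12 oocyte markers (horizontal axis), 1 point per array, colour for genotype and shape for stage. The P0 WT arrays lie alone at the top right (Fdft1 2.72 to 2.79, markers 2.31 to 2.49), and the P0 KO arrays at 1.10 to 1.37 for Fdft1 and -0.84 to -0.31 for the markers.

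Neighbouring pathways at P0 held calls in both directions, and their counts stand against 18.2% of all genes higher and 16.2% lower. Of 18 genes of SREBP processing and sterol-regulated degradation, 7 were higher and 1 lower in KO ovaries. Among the higher ones was Pgrmc1, a heme-binding membrane protein (0.66, SE 0.08, adjusted p = 6.17e-05). Sec23a, a coat protein of the vesicles that leave the endoplasmic reticulum, was the lower one (-0.37, SE 0.07, adjusted p = 0.00174). Of 24 genes of sterol uptake, transport, storage and efflux, 7 were higher and 1 lower, with Vldlr, a lipoprotein receptor, at 0.65 (SE 0.10, adjusted p = 0.000427) and Npc2, which carries cholesterol out of lysosomes, at 0.35 (SE 0.06, adjusted p = 0.00141). Of 18 fatty acid synthesis genes, 5 were higher and 2 lower. Fasn, fatty acid synthase, rose by 0.50 (SE 0.10, adjusted p = 0.00197), and Acacb, an acetyl-CoA carboxylase, fell by 0.78 (SE 0.13, adjusted p = 0.00066). The medians of these 3 lists were 0.14, 0.20 and 0.10, beside 0.00 for all genes and -0.16 for the 26.

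Of 6 further cholesterol synthesis genes, 2 were higher and 2 lower at P0, where 18.2% of all genes were higher and 16.2% lower. Acat1, a mitochondrial acetyl-CoA acetyltransferase, was at -0.43 (SE 0.09, adjusted p = 0.00235). Of 16 genes of the isoprenoid branch 3 were lower and 2 higher, led by Dhdds, which makes dolichol precursors from farnesyl diphosphate (-0.46, SE 0.08, adjusted p = 0.000805). Of 13 steroid hormone genes 2 were lower and 2 higher. Hsd17b1, which makes estradiol from estrone, was lower (-1.17, SE 0.24, adjusted p = 0.00242), and Fdx1, which passes electrons to mitochondrial steroid enzymes, higher (0.55, SE 0.07, adjusted p = 0.000117). Of 8 LXR receptors and targets 2 were higher, Mylip and Srebf1, and of 6 oxysterol and bile acid enzymes 1 was lower, Hsd3b7 (-0.69, SE 0.10, adjusted p = 0.000373).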

How the data were processed

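RNA of 18 whole-ovary samples was hybridised to Agilent 1-colour arrays. The deposited scanner files hold background-subtracted intensity values that the authors made with Agilent Feature Extraction (10.7.3.1 per the file headers, 9.5 per the submitters' processing notes). The deposited series matrix holds log2 values; on each array they differed from the scanner log2 intensity by a single constant, so they are scaled per array and not centred by gene.

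Control and outlier spots (51 to 109 per array) were left out, and each array's 75th percentile of log2 intensity over 41174 probes was subtracted. The percentile over all non-control spots was computed first, and probes were preferred because this matched the deposited matrix; both are reported. Probes well above background on all 3 arrays of a group were kept (29201), and the brightest probe stood for a gene. Probe coordinates are those of the files (mm9). Names came from the files, with 28223 probes named through RefSeq accessions. One model in limma 3.58.1 (R 4.3.3) held the 6 groups and the run, with 11 residual degrees of freedom, and calls were made below 0.05 after Benjamini-Hochberg adjustment. The number of arrays limits the precision. The fit was also run on simulated data with independent noise and no run or slide effects, so its handling of runs and slides was not tested.

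As a check of pairing, the deviations from group means of KO and WT arrays with the same number were correlated. At E17.5 r was 0.12, 0.40 and 0.45, all over 0.1, and a blocked fit is therefore printed for that stage. The run was not removed from these deviations, and at E17.5 replicate 3 of both genotypes was in run A and the others in run B. The check therefore cannot tell pairing from run there. At E15.5 (0.18, 0.20 and -0.12) and P0 (0.15, 0.10 and 0.08) the correlations did not all pass. All 26 genes were eligible to be named, and of each other list up to 4 called genes with the smallest adjusted p. Some genes of these lists are not reported here by name. The genes and lists were chosen with earlier results of these data known. Figures used matplotlib 3.10.9.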

Additional observations from a re-analysis of the deposited data

Results flagged for a closer look

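For 6 of the 26 genes the genotype effect at P0 differed from that at E17.5 in the test of the difference itself (limma, adjusted p under 0.05). The effect at P0 minus that at E17.5 was -0.88 for Fdft1, -0.67 for Pmvk, -0.66 for Fdps, -0.55 for Sqle, -0.54 for Tm7sf2 and -0.45 for Mvk. Apart from the 2-fold minimum, which left none, Fdft1 passed under each of the 34 alternatives run on it, while Mvk did not pass under 17 of 35 and Pmvk under 6 of 35. No cause was tested. Groups held 3 arrays, so no search for a single outlying array was made within them.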

How the results depend on the processing

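At P0 the calls on Fdft1, Mvd, Pmvk and Sqle held under the alternatives run other than a 2-fold minimum, which kept Fdft1 alone, and Fdft1 ranged from -1.57 to -1.37. Of 14 genes called, leaving out an array gave 10 to 14, the P0 arrays alone 8 and a 2-fold minimum 1. Insig2 turned to -0.31 with its other probe. At E17.5, against 2 called, the count was 0 without the run term, with the replicate block, without slide 3, in run B alone, with E17.5 arrays alone and at 2-fold. It was 1 with median scaling, no filter or array weights, and 4 with the stricter filter, and leaving out an array gave 0 to 5, with 0 without replicate 3 of either genotype. At E15.5, against 0 called, normexp with quantile normalization or trended and robust moderation gave 1 and array weights 2, and leaving out an array 0 to 1. For the effect at P0 minus that at E17.5, against 6, normexp gave 11, median scaling 1 and the 2-fold minimum 0, and leaving out an array 4 to 7. From E17.5 to P0 the count in KO was 10 with the mean of a gene's probes, 1 at 2-fold and 6 to 16 without an array, and in WT 2 at 2-fold and 12 to 17 without an array. From E15.5 to E17.5 it was 0 at 2-fold and 3 to 7 without an array in KO, and 1 at 2-fold and 3 to 16 without an array in WT. Over all genes, leaving out an array gave 4792 to 7234 calls at P0, 141 to 1027 at E17.5 and 23 to 472 at E15.5. For the difference between stages it gave 1044 to 2700. From E17.5 to P0 it gave 4585 to 7321 in KO and 6172 to 8846 in WT. From E15.5 to E17.5 it gave 2528 to 5313 in KO and 1049 to 5536 in WT. The counts over all genes under the other alternatives are not given here. Median scaling moved the median of all genes to 0.14 at P0. The reported scaling was preferred after seeing the data, and the percentile over all non-control spots, computed first, gave 14 at P0, 3 at E17.5 and 0 at E15.5. With the replicate block 0 were called at E15.5, 13 at P0 (without Cyp51) and 5 in the difference between stages (without Mvk), and it was not run for changes with stage. Leaving out slide 3 was done without the run term and not between E15.5 and E17.5. Apart from the cases where fewer arrays or a higher threshold were used by construction, the cause was not tested. Single genes gave 3391 results on the same side of the threshold as reported, 100 that no longer passed and 33 that newly passed. Dim probes limit the secondary readings, and 3 arrays per group limit all.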

Other observations

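Of 18 fatty acid synthesis genes, 8 were lower and 1 higher at P0 than at E17.5 in WT ovaries, where 21% of all genes were lower and 22.3% higher. Fasn fell by 0.78 (SE 0.10, adjusted p = 0.000106) and Acacb, the higher one, gave 1.06 (SE 0.14, adjusted p = 8.43e-05). In KO ovaries 5 of 18 were lower and 1 higher, where 19% of all genes were lower and 18.2% higher, with Fasn at -0.44 (SE 0.10, adjusted p = 0.00488) and Acacb at 0.47 (SE 0.14, adjusted p = 0.0169).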
